A study of Mus musculus with 24 samples.

Results

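The 32 genes described here mark the blood vessels of the mouse brain and the barrier that they form. They were taken by symbol, not by their values, from the 45777 genes of a deposited count table of mouse prefrontal cortex. All 32 had enough reads to be tested. They were divided by role into 6 growth factor and receptor genes of vessels (Pdgfb, Flt1, Kdr, Tek, Tie1 and Eng), 6 junction and adhesion genes (Cldn5, Ocln, Tjp1, Cdh5, Esam and Pecam1), 5 transporters (Slco1a4, Abcb1a, Abcg2, Slc2a1 and Mfsd2a) and 6 other endothelial markers (Ly6c1, Itm2a, Vwf, Egfl7, Emcn and Hspa12b). The remaining 9 mark mural cells, 6 of them pericytes (Pdgfrb, Rgs5, Kcnj8, Abcc9, Vtn and Notch3) and 3 smooth muscle (Acta2, Tagln and Myh11). RNA came from adult male wild-type mice in 4 groups of 6 libraries. Control mice had neither intervention, MS mice had undergone maternal separation, in which young are taken from their mother early in life, and Control_EC12 and MS_EC12 mice of both rearings had received EC-12, a preparation of heat-killed Enterococcus faecalis, for 5 weeks. Whether every library is a different animal is not stated, and the p-values therefore reflect spread among libraries, some of it possibly technical.

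Brain capillaries are lined by endothelial cells sealed to one another by tight junctions and carrying dedicated transporters, which together restrict what passes between blood and brain. Endothelial cells secrete PDGF-BB, the product of Pdgfb, and pericytes carry its receptor, encoded by Pdgfrb; this signal keeps pericytes on the vessel wall, and pericytes in turn help to maintain the barrier. Larger vessels are wrapped by smooth muscle, whose contractile proteins include those encoded by Acta2, Tagln and Myh11. In bulk tissue, fewer cells of a type and less RNA per cell cannot be told apart.

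Levels per gene length were compared with the TPM values that the authors deposited. Slc2a1, which encodes the glucose transporter GLUT1, was at 82.0 ± 17.3 TPM (SD over 24 libraries) and Vtn, which encodes the matrix protein vitronectin, at 81.7 ± 15.7 TPM. Next came Itm2a, a membrane protein gene, at 66.6 ± 12.5 TPM and Ly6c1, a surface antigen gene, at 64.8 ± 14.6 TPM. Slc2a1 and Vtn differed by less than their SD, as did Itm2a and Ly6c1, while Vtn stood above Itm2a by more than the SD of Itm2a. Cldn5, the claudin of brain endothelial tight junctions, stood at 38.2 ± 8.35 TPM, against 4.21 ± 0.598 TPM for Ocln, which encodes the tight junction protein occludin. Among pericyte genes, Pdgfrb was at 9.61 ± 1.49 TPM, with Abcc9, a channel subunit gene, lowest at 2.15 ± 0.342 TPM. Myh11, the smooth muscle myosin heavy chain, had the lowest level of the 32 genes, 1.91 ± 0.446 TPM, and its counts ran from 104 to 251 per library. The defining markers of endothelium, pericytes and smooth muscle were thus all detected in every library. Summed over the 6 junction and adhesion genes, the level was 106 ± 12.9 TPM in Control, 95.5 ± 9.92 in MS, 107.7 ± 11.8 in Control_EC12 and 98.7 ± 7.87 in MS_EC12 (SD, n = 6), and these ranges overlapped.

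**Figure D1:**
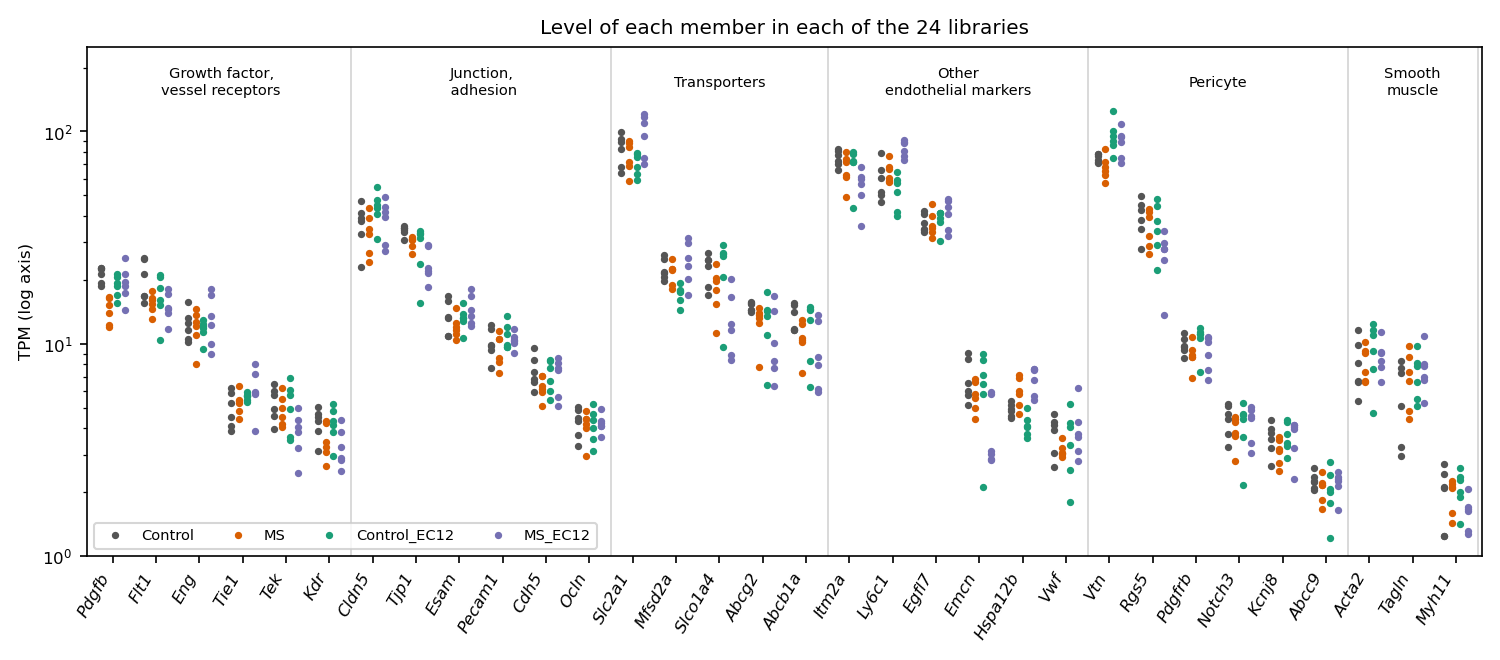
Level of each of the 32 genes in each of the 24 libraries, in TPM on a log axis, grouped by role and coloured by group (1 point per library). Mean levels ran from 1.91 TPM for Myh11 to 82.0 TPM for Slc2a1, and the colours of the 4 groups were mixed for most genes.

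Total counts per library ran from 26250197 to 39252382, with overlapping ranges in the 4 groups. The libraries differed in how counts depended on base composition. For each library a slope was computed of log2 CPM (counts scaled to library size, relative to the gene's mean) on the GC content of the gene's transcripts. It was −0.13 ± 0.03 log2 units per 10 percentage points of GC in Control, −0.11 ± 0.20 in MS, −0.0045 ± 0.25 in Control_EC12 and 0.24 ± 0.35 in MS_EC12 (SD, n = 6). A slope above 0 was found in 7 libraries: 1 of MS, 2 of Control_EC12 and 4 of MS_EC12. Markers of choroid plexus also set a library apart: the sum of 7 such genes was 1153 TPM in MS_EC12 replicate 6 and 120 TPM in MS replicate 3, against 9.41 to 28.7 TPM elsewhere. None of the 7 was at 0 in every library. The 17 libraries of slope below 0 (6 Control, 5 MS, 4 Control_EC12 and 2 MS_EC12) leave out both of those, and values from these 17 stand beside the calls below.

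The 32 genes spanned GC contents from 40.6% to 60.5%, with a median of 52.3% against 50.9% over all genes with a value, and 19 of them lay above 50%. The contrast is shown by the first 120 coding bases of 2 GC-rich and 2 GC-poor members, read 5′ to 3′ from the GENCODE M21 transcripts of GRCm38, with G and C in capitals. Pdgfb and Hspa12b, the latter an endothelial member of the HSP70 family, had transcript GC contents of 59.4% and 57.9%. Slco1a4, an organic anion transporter gene, and Emcn, which encodes the sialomucin endomucin, had 40.6% and 43.3%.
Pdgfb: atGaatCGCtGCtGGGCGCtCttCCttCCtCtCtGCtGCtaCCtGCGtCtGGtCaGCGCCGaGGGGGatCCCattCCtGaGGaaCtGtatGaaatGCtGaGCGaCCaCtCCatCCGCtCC
Hspa12b: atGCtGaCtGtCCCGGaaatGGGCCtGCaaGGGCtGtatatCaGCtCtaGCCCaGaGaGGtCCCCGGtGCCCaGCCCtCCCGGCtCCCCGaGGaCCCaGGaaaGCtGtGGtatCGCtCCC
Slco1a4: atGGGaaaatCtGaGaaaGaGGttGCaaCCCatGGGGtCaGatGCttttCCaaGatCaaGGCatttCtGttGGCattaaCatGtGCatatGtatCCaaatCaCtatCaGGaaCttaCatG
Emcn: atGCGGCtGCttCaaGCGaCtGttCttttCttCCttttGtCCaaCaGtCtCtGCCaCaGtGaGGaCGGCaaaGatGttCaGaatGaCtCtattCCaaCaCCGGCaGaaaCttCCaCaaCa
Within MS_EC12 these genes divided with the slope. Slco1a4 was at 25.9 and 33.5 CPM in replicates 1 and 2, whose slopes were below 0, and at 15.1, 21.1, 19.7 and 15.01 CPM in replicates 3 to 6. Emcn was at 3.66 and 3.78 CPM in the former and at 2.00, 1.85, 2.07 and 2.02 CPM in the latter. Hspa12b ran the other way, at 7.32 and 7.24 CPM against 10.3, 9.11, 10.2 and 10.8 CPM.

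The comparison of MS with Control asks what maternal separation did without the supplement. Pdgfb fell, and it was the 1 member of 32 that passed the test. It was at 24.4, 24.6, 29.3, 29.2, 29.4 and 29.3 CPM in Control and at 20.4, 19.4, 22.2, 16.7, 16.1 and 16.5 CPM in MS. Every MS library lay below every Control library. The log2 fold change was −0.58 ± 0.11 (SE, n = 6 per group; edgeR quasi-likelihood test, adjusted p = 0.0471 by Benjamini-Hochberg over 18380 genes). Across all genes tested, 0.0326% were called and 0.484% had every MS library below every Control library. Its value in the 17 libraries was −0.63 (adjusted p = 0.000638, where 0.435% of all genes were called). The call was lost, with adjusted p up to 0.202, in 8 of 12 fits that left out a library (Control replicate 3, 4, 5 or 6, or MS replicate 2, 4, 5 or 6), where the log2 fold change stayed between −0.64 and −0.54. It was also lost with upper-quartile scaling (0.0163% of all genes called), with no filter on low counts (0.0158%) and in the tests on TPM values (0.0163% and 0.0218%).

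The other members mostly had negative values that did not pass. In all, 27 of 32 log2 fold changes were below 0, with a median of −0.14, against a median of −0.0057 and 48.0% above 0 over all genes tested. At an unadjusted p under 0.05 stood 3 members, against 3.6% of all genes. Of the members' values in the 17 libraries, 28 of 32 were below 0, with a median of −0.15 against 0.0047 over all genes. By role, all 6 junction and adhesion genes (median −0.14), all 5 transporters (median −0.24) and all 6 pericyte genes (median −0.15) were below 0. These 3 roles kept all values below 0 in the 17 libraries (medians −0.19, −0.15 and −0.20). The receptors and Pdgfb had a median of −0.20 in all libraries, the other endothelial markers −0.089 and the 3 smooth muscle genes 0.03.

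Among vessel receptors, Flt1, which encodes VEGF receptor 1, ran from 43.7 to 72.2 CPM in Control (median 52.3) and from 36.9 to 49.95 CPM in MS (median 43.2). Its log2 fold change was −0.36 ± 0.14 (adjusted p = 0.9999). Kdr, which encodes VEGF receptor 2, had −0.28 ± 0.14. Tie1, an orphan receptor of the angiopoietin system, had 0.09 ± 0.15, so the receptor values were not of 1 sign. Cldn5 ran from 13.8 to 27.6 CPM in Control and from 14.4 to 26.1 CPM in MS, ranges that nearly coincided (log2 fold change −0.13 ± 0.18). Tjp1, which encodes the scaffold protein ZO-1, had −0.19 ± 0.11, with 6 of 6 MS libraries below the Control mean. Slc2a1 ran from 65.2 to 109 CPM in Control and from 63.3 to 98.0 CPM in MS (−0.10 ± 0.15). Pdgfrb, the receptor for PDGF-BB, ran from 19.0 to 25.9 CPM in Control and from 15.6 to 24.4 CPM in MS (−0.14 ± 0.12). The value of Pdgfrb in the 17 libraries was −0.21 ± 0.08, which did not pass either (adjusted p = 0.319). Acta2, smooth muscle actin, had a median of 7.84 CPM in Control and 8.72 CPM in MS (0.03 ± 0.21). Hspa12b was higher in MS, with a median of 7.35 against 6.16 CPM, but did not pass (0.29 ± 0.12, unadjusted p = 0.0249, adjusted p = 0.9999). The 17 libraries gave −0.38 for Flt1, −0.25 for Kdr, 0.03 for Tie1, −0.22 for Cldn5, −0.15 for Tjp1, −0.0046 for Acta2 and 0.23 for Hspa12b, none passing.

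**Figure D2:**
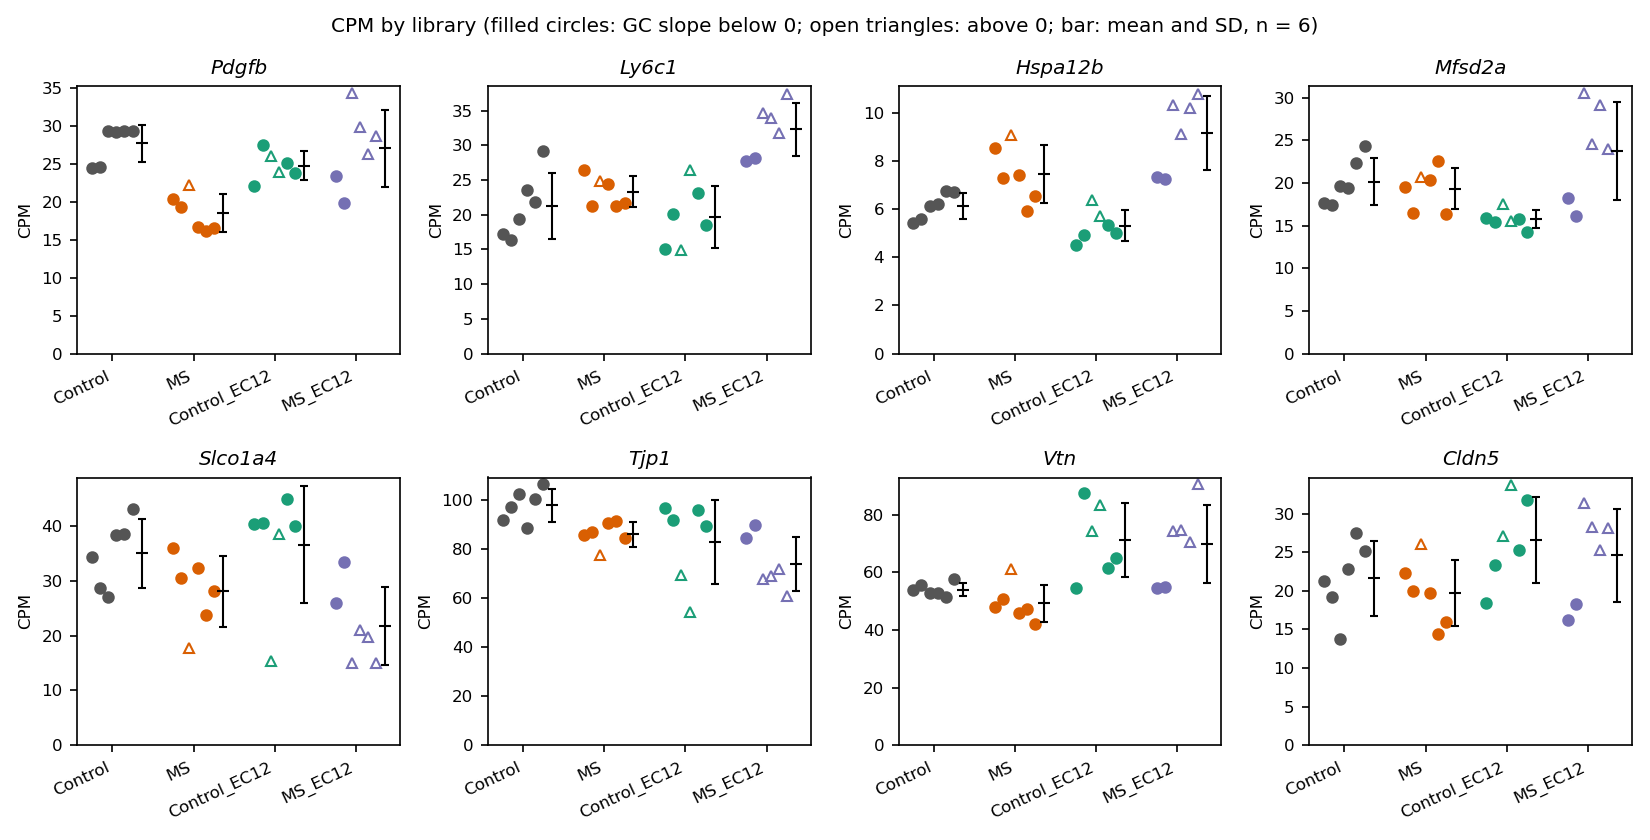
CPM of 8 members in each library, by group (filled circles, GC slope below 0; open triangles, above 0; bars, mean and SD of 6). Pdgfb shows no overlap between Control (24.4 to 29.4 CPM) and MS (16.1 to 22.2 CPM). The open triangles of MS_EC12 stand apart from its filled circles for all 8 members, Pdgfb included.

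The comparison of Control_EC12 with Control sets supplemented beside unsupplemented mice after normal rearing. No member passed the edgeR test (0 of 32, against 0.0218% of all genes), and DESeq2 called 0 (0.498% of all genes). An unadjusted p under 0.05 was reached by 3 members, against 8.93% of all genes. Vtn ran from 51.3 to 57.6 CPM in Control (median 53.4) and from 54.6 to 87.4 CPM in Control_EC12 (median 69.7), with 6 of 6 supplemented libraries above the Control mean (log2 fold change 0.40 ± 0.12, adjusted p = 0.292). Mfsd2a, which encodes the lysophospholipid carrier that limits transcytosis in brain endothelium, ran from 17.4 to 24.4 CPM in Control and from 14.3 to 17.5 CPM in Control_EC12. Its ranges met at the edge only, with 6 of 6 supplemented libraries below the Control mean (−0.35 ± 0.13, adjusted p = 0.402). Tjp1 had −0.24 ± 0.11 (adjusted p = 0.545), and its 2 lowest Control_EC12 values, 69.3 and 54.5 CPM, were those of the 2 libraries of slope above 0. The 17 libraries gave 0.31 for Vtn, −0.39 for Mfsd2a and −0.07 for Tjp1, with no member called (0.456% of all genes). With the GC slope as a covariate, Mfsd2a alone was called (0.724% of all genes).

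Signs in this comparison were divided, 13 above 0 and 19 below, with a median of −0.03 against 0.0099 over all genes. The 17 libraries had 17 of 32 above 0, with a median of 0.0031. Transporters had 4 of 5 values below 0 in all libraries (median −0.17) and 3 of 5 in the 17 (median −0.017). The 3 smooth muscle genes were all above 0 (median 0.27, and 0.21 in the 17), yet with wide spread: Acta2 ran from 5.61 to 12.6 CPM in Control and from 5.10 to 15.9 CPM in Control_EC12 (0.27 ± 0.21, adjusted p = 0.687). Cldn5 had medians of 22.1 and 26.2 CPM (0.30 ± 0.18, adjusted p = 0.627). Pdgfb (−0.16 ± 0.11), Slc2a1 (−0.19 ± 0.15) and Pdgfrb (0.14 ± 0.12) did not pass either. Cldn5 and Acta2 were at 0.19 and 0.15 in the 17 libraries, Pdgfb at −0.17, Slc2a1 at −0.25 and Pdgfrb at 0.16.

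The comparison of MS_EC12 with MS sets supplemented beside unsupplemented mice after maternal separation. These groups also differed in GC slope, with means of 0.24 and −0.11. Pdgfb rose, again as the 1 member that passed, where 0.163% of all genes were called. It was at 23.4, 19.9, 34.3, 29.8, 26.2 and 28.6 CPM in MS_EC12, all 6 above the MS mean of 18.5 CPM, and the lowest of them overlapped the MS range. The log2 fold change was 0.54 ± 0.11 (adjusted p = 0.036). It was 0.27 and did not pass in the 17 libraries (adjusted p = 0.437; 0.0733% of all genes called), where MS_EC12 keeps replicates 1 and 2 at 23.4 and 19.9 CPM. Nor did it pass without MS replicate 1, 2, 4, 5 or 6 or MS_EC12 replicate 3, 4 or 6 (log2 fold change from 0.46 to 0.62 and adjusted p up to 0.148 over the 12 fits that left out a library). This comparison and that of MS with Control share the MS libraries, so the fall and the rise of Pdgfb are not independent of each other. Against Control the log2 fold change of Pdgfb in MS_EC12 was −0.03 ± 0.11 in all libraries and −0.36 ± 0.11 in the 17 (adjusted p = 0.126), neither passing.

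The next members by p were Vtn (0.51 ± 0.12, adjusted p = 0.0664), Ly6c1 (0.47 ± 0.14, adjusted p = 0.0798), Slc2a1 (0.47 ± 0.15, adjusted p = 0.084) and Esam, an endothelial adhesion molecule gene (0.39 ± 0.14, adjusted p = 0.0898). Ly6c1 ran from 21.3 to 26.4 CPM in MS and from 27.7 to 37.4 CPM in MS_EC12 without overlap, as did 0.593% of all genes in that direction. Slc2a1 in MS_EC12 was at 80.7 and 80.3 CPM in replicates 1 and 2 and at 140, 110, 136 and 135 CPM in replicates 3 to 6, against 63.3 to 98.0 CPM in MS. DESeq2 called these 4 genes with Pdgfb, 5 of 32, a share close to the 15.8% of all genes that it called. The edgeR values of these 4 were smaller in the 17 libraries, at 0.22 for Vtn, 0.27 for Ly6c1, 0.02 for Slc2a1 and 0.15 for Esam, and none passed.

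Over all members 23 of 32 values were above 0, with a median of 0.24 against 0.02 over all genes, and 12 had an unadjusted p under 0.05 (31.8% of all genes did). The signs followed GC content. Of the 19 members above 50% GC, 18 were above 0, and of the other 13, 5 were. Over all genes the medians were 0.16 above 50% GC and −0.22 up to it. The members' median in the 17 libraries was 0.0023, and 11 of 19 GC-rich and 6 of 13 GC-poor members were above 0. Those libraries were chosen by GC slope, so a weaker division by GC content there was set up by the choice. Cldn5 (0.32 ± 0.18), Pdgfrb (0.16 ± 0.12) and Acta2 (0.21 ± 0.21) did not pass. Their values in the 17 libraries were −0.10, −0.19 and −0.09.

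**Figure D3:**
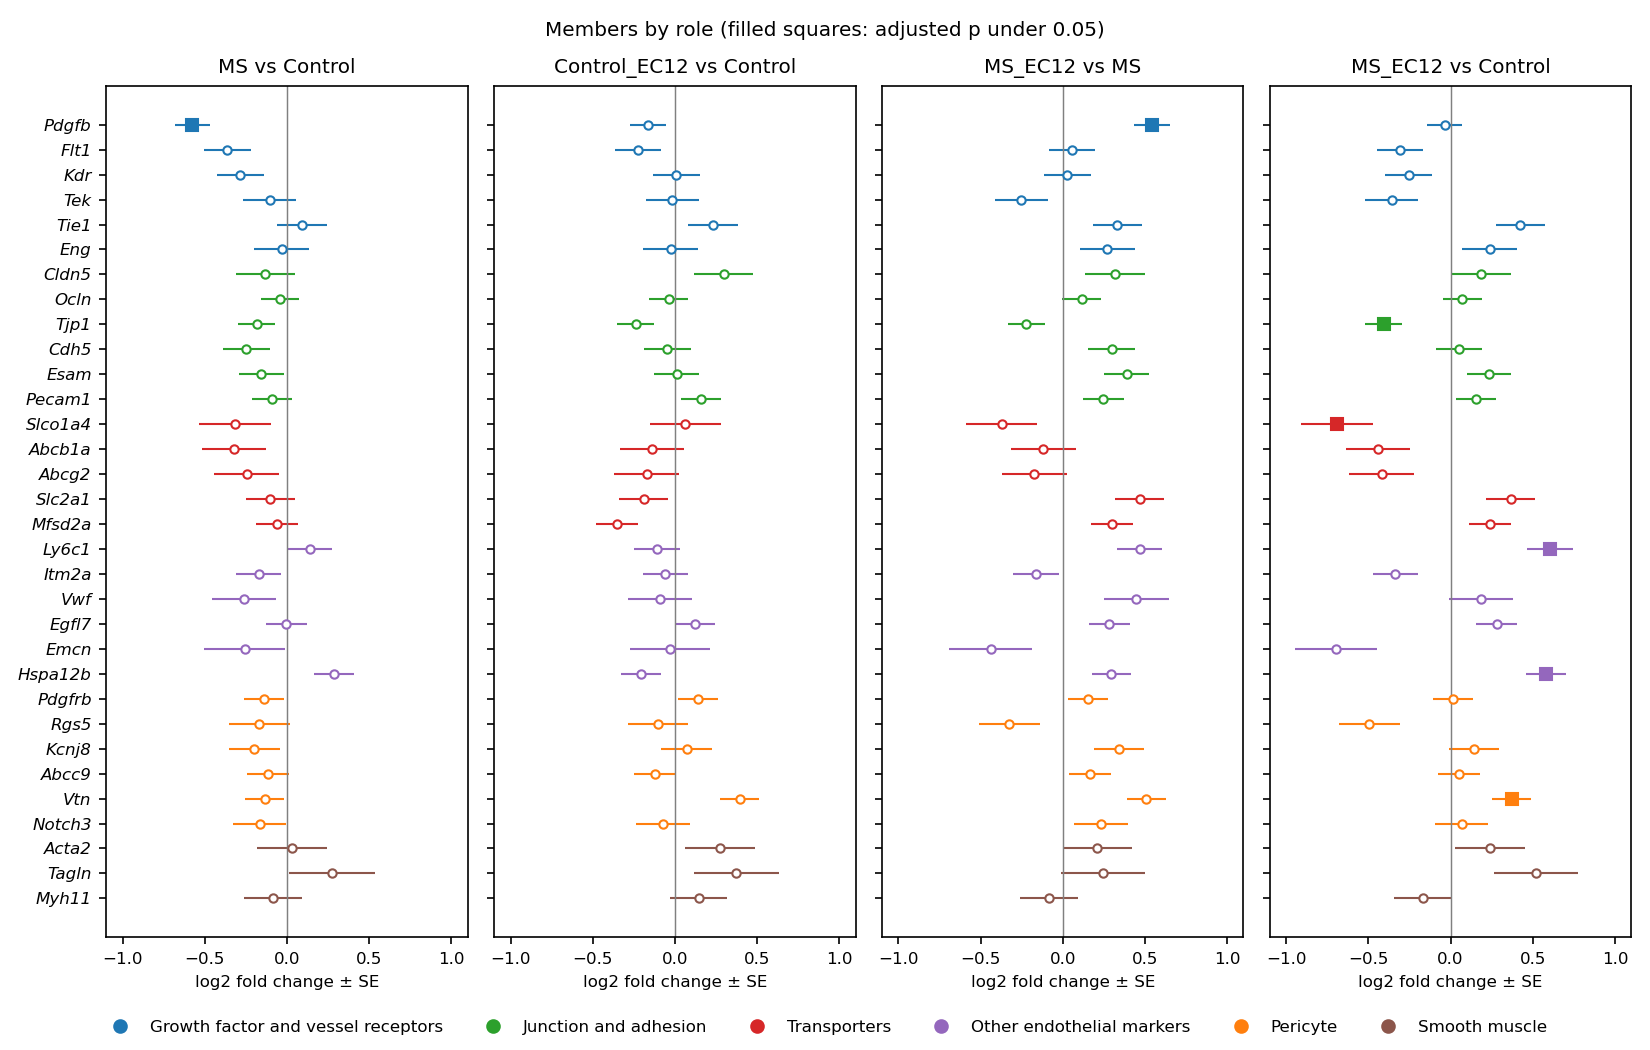
Log2 fold change with its SE for each member in 4 comparisons, coloured by role (filled squares, adjusted p under 0.05; open circles, not passing). Pdgfb is the filled square at −0.58 in MS against Control and at 0.54 in MS_EC12 against MS. In MS_EC12 against Control 5 members pass, a share close to the 14.1% of all genes called.

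The comparison of MS_EC12 with Control_EC12 sets separated beside normally reared mice, both supplemented. Their mean GC slopes were 0.24 and −0.0045. Hspa12b, Ly6c1 and Mfsd2a rose, 3 of 32 members, where 0.261% of all genes were called. Hspa12b ran from 4.51 to 6.39 CPM in Control_EC12 (median 5.18) and from 7.24 to 10.8 CPM in MS_EC12 (median 9.64). Ly6c1 ran from 14.96 to 26.4 CPM (median 19.3) and from 27.7 to 37.4 CPM (median 32.9). Neither gene's groups overlapped, as for 0.288% of all genes in that direction. Mfsd2a ran from 14.3 to 17.5 CPM (median 15.7) and from 16.1 to 30.5 CPM (median 24.3), and MS_EC12 replicate 2 fell within the Control_EC12 range. The log2 fold changes were 0.78 ± 0.12 for Hspa12b (adjusted p = 0.00215), 0.71 ± 0.14 for Ly6c1 (adjusted p = 0.0212) and 0.59 ± 0.13 for Mfsd2a (adjusted p = 0.0444). None passed in the 17 libraries (0.162% of all genes did), with values of 0.56 (adjusted p = 0.0854), 0.54 (adjusted p = 0.232) and 0.16 (adjusted p = 0.701).

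Hspa12b passed in each of the 12 fits that left out a library (adjusted p from 0.00172 to 0.0103). Ly6c1 did not pass without Control_EC12 replicate 1 or 6 or MS_EC12 replicate 3 or 6 (adjusted p up to 0.0774). Mfsd2a did not pass without Control_EC12 replicate 1, 2, 5 or 6 or MS_EC12 replicate 3, 4, 5 or 6 (adjusted p up to 0.163). Slc2a1 (0.56 ± 0.15, adjusted p = 0.14) and Slco1a4 (−0.75 ± 0.22, adjusted p = 0.163) were the next by p, with 6 of 6 MS_EC12 libraries on 1 side of the Control_EC12 mean for each. Their values in the 17 were 0.12 and −0.48. Pdgfb had 0.13 ± 0.11, which turned to −0.18 in the 17 libraries. Cldn5 (−0.11 ± 0.18), Pdgfrb (−0.13 ± 0.12) and Acta2 (−0.03 ± 0.21) did not pass. All 3 lay further below 0 in the 17 libraries, at −0.51 ± 0.22 for Cldn5, −0.55 ± 0.12 for Pdgfrb (adjusted p = 0.0552) and −0.24 for Acta2, again without passing. All 6 growth factor and receptor genes were below 0 in the 17 libraries (median −0.31), against 3 of 6 in all libraries.

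MS_EC12 and Control differ in both rearing and supplement. Here 5 members passed, 3 higher (Ly6c1, Hspa12b and Vtn) and 2 lower (Slco1a4 and Tjp1). Of all genes 14.1% were called, 7.31% higher and 6.8% lower. The share of members that passed was close to that of all genes. These calls therefore do not set the members apart from other genes, and their values are given as a description. Slco1a4 ran from 27.0 to 43.1 CPM in Control (median 36.4) and from 15.01 to 33.5 CPM in MS_EC12 (median 20.4). Tjp1 ran from 88.8 to 107 CPM (median 99.0) and from 61.0 to 90.0 CPM (median 70.3). In both genes 6 of 6 MS_EC12 libraries lay below the Control mean, and the groups overlapped. The log2 fold changes were −0.69 ± 0.22 for Slco1a4 (adjusted p = 0.0426) and −0.41 ± 0.11 for Tjp1 (adjusted p = 0.035).

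Ly6c1 ran from 16.3 to 29.1 CPM in Control and from 27.7 to 37.4 CPM in MS_EC12 (0.60 ± 0.14, adjusted p = 0.0223). Vtn ran from 51.3 to 57.6 CPM and from 54.7 to 90.5 CPM (0.37 ± 0.12, adjusted p = 0.0436). Hspa12b ran from 5.43 to 6.74 CPM and from 7.24 to 10.8 CPM (0.58 ± 0.12, adjusted p = 0.0181). It was the 1 member whose groups did not overlap, as for 2.57% of all genes in that direction and 5.19% in either. That share of the members does not set them apart either. In the 17 libraries no member passed, against 1.01% of all genes, with values of −0.17 for Tjp1, −0.24 for Slco1a4, 0.40 for Ly6c1, 0.25 for Hspa12b and 0.02 for Vtn. None passed with the GC slope as a covariate, against 0.218% of all genes. Tjp1, Slco1a4 and Vtn passed in 2 of 12 fits that left out a library, those without MS_EC12 replicate 1 or 2, so that each Control replicate and MS_EC12 replicates 3, 4, 5 and 6 decided the call (adjusted p up to 0.11, 0.124 and 0.138). Ly6c1 did not pass without Control replicate 1, 2, 3 or 5 or MS_EC12 replicate 3, 4 or 6 (adjusted p up to 0.0706), and Hspa12b without Control replicate 5 or MS_EC12 replicate 6 (up to 0.0657).

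Roles did not move as blocks in this comparison; signs followed GC content. The members above 50% GC had a median of 0.23 with 17 of 19 above 0, and the others −0.36 with 3 of 13 above 0. Over all genes the medians were 0.15 and −0.25. Across the 32 members the correlation of GC content with log2 fold change was 0.71 (Spearman 0.67), and over 15144 genes 0.59 (Spearman 0.65). These are descriptions across genes of the same libraries. Both correlations (not the Spearman values) were −0.09 in the 17 libraries, and 7 of 19 GC-rich and 5 of 13 GC-poor members were above 0. The 17 were chosen by GC slope in these same counts, so that loss was set up by the choice and tests nothing. Within the transporters, GC-poor Slco1a4, Abcb1a (−0.44 ± 0.20) and Abcg2 (−0.42 ± 0.20), the latter pair encoding the drug efflux pumps P-glycoprotein and BCRP, were below 0, while GC-rich Slc2a1 (0.37 ± 0.15) and Mfsd2a (0.24 ± 0.13) were above 0. In the 17 libraries Abcb1a had 0.05, Abcg2 0.09, Slc2a1 −0.13 and Mfsd2a −0.23. Rgs5, a GC-poor pericyte gene that encodes a regulator of G protein signalling, had −0.49 ± 0.18, beside Pdgfrb at 0.01 ± 0.12. Cldn5 (0.19 ± 0.18) and Acta2 (0.24 ± 0.21) did not pass. These turned below 0 in the 17 libraries, with Pdgfrb at −0.39 ± 0.11 (adjusted p = 0.0926), Cldn5 at −0.33 and Acta2 at −0.09, beside Rgs5 at −0.26, and none passed.

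**Figure D4:**
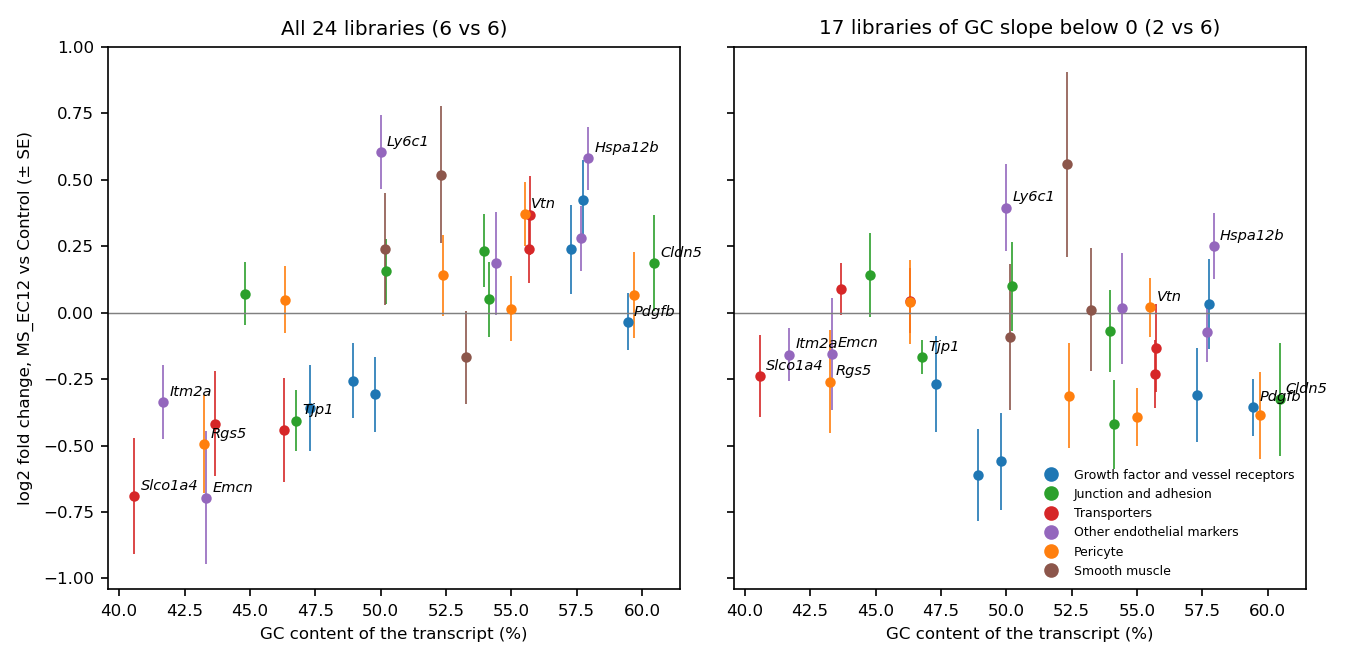
Log2 fold change of MS_EC12 against Control with its SE, by the GC content of the member's transcripts, coloured by role, in all 24 libraries (left) and in the 17 of GC slope below 0 (right, 2 MS_EC12 and 6 Control). On the left the points tend to rise with GC content (r = 0.71), as from Slco1a4 at −0.69 to Hspa12b at 0.58. The relation is loose: Cldn5, of the highest GC content (60.5%), stands at 0.19 and Pdgfb (59.4%) at −0.03. No such rise is seen on the right (r = −0.09), where libraries were chosen by GC slope, so its loss was set up by that choice.

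The interaction asks whether the supplement's effect differed between rearings. No member passed with edgeR (0 of 32, against 0.0109% of all genes). An unadjusted p under 0.05 was reached by 5 members, against 4.8% of all genes: Pdgfb (0.71 ± 0.15, adjusted p = 0.176), Slc2a1 (0.66 ± 0.21), Mfsd2a (0.65 ± 0.18), Ly6c1 (0.58 ± 0.20) and Hspa12b (0.50 ± 0.17). All 5 had the more positive log2 fold change with the supplement after maternal separation. The 17 libraries gave 0.45, 0.27, 0.24, 0.42 and 0.33, none passing (0.0105% of all genes did). DESeq2 called Pdgfb alone (0.0806% of all genes), and without MS_EC12 replicate 2 edgeR gave it an adjusted p of 0.0454. Signs went with GC content here too: 16 of 19 members above 50% GC were above 0, and 7 of the other 13. Over all genes 71.9% of those above 50% GC were above 0, against 21.8% of those up to it. The correlation of GC content with the interaction value was 0.60 over members and 0.47 over all genes.

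Of 150 further genes of vessel signalling, junctions, transport, mural cells and basement membrane, 147 could be tested. None was called in MS against Control with edgeR (0.0326% of all genes were), where 42 of 147 values were above 0 (median −0.09). The 3 of smallest p were Lef1, a Wnt-responsive transcription factor gene (−0.68 ± 0.18, adjusted p = 0.449), Cgnl1, which encodes the junction protein paracingulin (−0.37 ± 0.10, adjusted p = 0.473), and Slc16a1, which encodes the lactate carrier MCT1 (−0.30 ± 0.08, adjusted p = 0.409). In the 17 libraries, where 0.435% of all genes were called, Cgnl1 (−0.34, adjusted p = 0.0315) and Slc16a1 (−0.35, adjusted p = 0.0142) passed. How many of the 147 passed there is not at hand. All 11 basement membrane genes were below 0 in all libraries (median −0.18). In Control_EC12 against Control none was called (70 of 147 above 0, median −0.0062). In MS_EC12 against MS 1 was called (0.163% of all genes were), Slc7a5, which encodes the amino acid carrier LAT1 (0.56 ± 0.11, adjusted p = 0.036; 0.32 in the 17 libraries, adjusted p = 0.336). Of the other PDGF genes none was called in that comparison, and 1 of 5 was above 0.

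MS_EC12 against Control_EC12, where 0.261% of all genes were called, had 1 of the 147 higher, the endothelial receptor gene Notch4 (0.75 ± 0.15, adjusted p = 0.0212), and 2 lower, among them the laminin gene Lama4 (−0.60 ± 0.12, adjusted p = 0.0228). Neither of these named genes passed in the 17 libraries, with 0.58 for Notch4 (adjusted p = 0.266) and −0.59 for Lama4 (adjusted p = 0.0645). In MS_EC12 against Control 23 of the 147 passed, 9 higher and 14 lower, with 73 above 0 and a median of −0.0027. That share is close to the 14.1% of all genes called, so the genes named are a description of the list. The 9 were Pdgfa (0.25), Angptl4 (0.59), Notch4 (0.47), Smad6 (0.80), Plvap (0.49), Podxl (0.42), Ramp2 (0.60), Ager (0.84) and Slc7a5 (0.43). Plvap encodes the diaphragm protein of fenestrated endothelium. The 14 were Vegfa (−0.29), its co-receptor gene Nrp1 (−0.36), Angpt1 (−0.96), which encodes a ligand of the Tek receptor, Tgfbr1 (−0.55), Vcam1 (−0.37), Jam3 (−0.20), Cgnl1 (−0.31), Ctnnd1 (−0.26), Cald1 (−0.33), Gucy1a1 (−0.37), Gucy1b1 (−0.37), Lama4 (−0.42), Itga1 (−0.95) and Itgb1 (−0.35). In the 17 libraries, where 1.01% of all genes were called, Vegfa (−0.40, adjusted p = 0.0373) and the leukocyte adhesion gene Vcam1 (−0.36, adjusted p = 0.0387) still passed, and the other 21 did not.

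The members called lie on 6 chromosomes of GRCm38, and the values are sums over each whole gene. Pdgfb spans 79995865 to 80024614 on chromosome 15, where Ly6c1 spans 75044018 to 75048920. Tjp1 spans 65296165 to 65527850 on chromosome 7, Slco1a4 141805438 to 141856284 on chromosome 6 and Mfsd2a 122946850 to 122961194 on chromosome 4. Hspa12b spans 131127412 to 131145985 on chromosome 2 and Vtn 78499120 to 78502325 on chromosome 11. None of the 7 overlaps another protein-coding gene in RefSeq. Eng overlaps Fpgs, Abcb1a overlaps Rundc3b and Tagln overlaps Pcsk7, so their counts may hold reads of the partner. Ly6c1 has a close copy, Ly6c2, between which reads could have been split; Ly6c2 had a mean count of 18.8. The related Ly6a was higher in MS_EC12 than in Control (0.74 ± 0.15, adjusted p = 0.0181), but did not pass in the 17 libraries (0.61, adjusted p = 0.126). Abcb1b, the paralog of Abcb1a, had −0.64 ± 0.23 in that comparison (adjusted p = 0.0589) and −0.079 in the 17.

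RefSeq promoter windows (250 bases before the start, GRCm38.p6) were at hand for 24 of the 32 members, 30 windows in all. The GC box GGGCGG, on either strand, was in 14 of 30 against 32.7% of 32851 windows of all genes, and the ETS core AGGAAG, a motif of factors active in endothelium, in 13 of 30 against 29.5%. The E-box CACGTG was in 0 of 30 against 6.02%. The CArG box, which serum response factor binds in smooth muscle genes, was searched only as CC, 6 bases each A or T, then GG. In that strict form it was in 0 of 30 against 1.47%. Of the smooth muscle genes only Acta2 had a window. That window holds the near matches ccctatatgg and ccttgtttgg, which the strict form leaves out, so the count does not show that CArG boxes are absent. The 4 motifs differ in sequence and were counted separately. The windows of Hspa12b and Vtn, 2 members that were higher in MS_EC12 than in Control, are printed 5′ to 3′ on their own strand, with GC boxes in capitals. That of Hspa12b (chr2:131127162-131127411, plus strand) is 72.4% GC with 2 GC boxes, and that of Vtn (chr11:78498870-78499119, plus strand) is 50.4% GC with none of the 4 motifs.
Hspa12b promoter: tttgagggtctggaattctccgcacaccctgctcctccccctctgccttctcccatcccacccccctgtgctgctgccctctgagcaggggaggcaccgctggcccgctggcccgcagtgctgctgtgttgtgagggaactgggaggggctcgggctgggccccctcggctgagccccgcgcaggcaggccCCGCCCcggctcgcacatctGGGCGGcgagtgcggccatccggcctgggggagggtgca
Vtn promoter: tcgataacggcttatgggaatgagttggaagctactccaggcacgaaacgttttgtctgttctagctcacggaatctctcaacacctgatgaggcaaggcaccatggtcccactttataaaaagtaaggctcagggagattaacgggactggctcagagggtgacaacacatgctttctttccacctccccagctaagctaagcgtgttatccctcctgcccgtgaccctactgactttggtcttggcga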

How the data were processed

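The 24 libraries of prefrontal cortex fell into 4 groups of 6 by their labels. Total RNA was isolated with ISOGEN II and sequenced from stranded mRNA libraries, per the labels' protocols. Among the tools that the submitters' processing notes list are StringTie 2.1.3b, HISAT2 2.1.0, Trimmomatic 0.38, FastQC 0.11.7 and DESeq2, with mm10 as the build and no roles stated. How reads were counted, and whether by strand, is not given in the sources used here, so a gene and an antisense partner may not have been told apart. The authors deposited raw counts per gene as whole numbers, with TPM and FPKM columns beside them per the file headers. FPKM was not used.

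Genes were filtered with filterByExpr (minimum count 10, minimum total 15), which left 18380. Groups were compared by the 2-sided quasi-likelihood test of edgeR 4.0.16 (R 4.3.3) after TMM scaling, in 1 fit of all 24 libraries with a coefficient for each group. P-values were adjusted over all 18380 genes by the Benjamini-Hochberg method, and a gene is said to change when its adjusted p is below 0.05. CPM values are TMM-scaled, and log2 CPM used a prior count of 2. GC content was the median over GENCODE M21 transcripts joined by NCBI Gene ID, known for 82.4% of tested genes and for 32 of 32 members. The script was tested on simulated data. Depth of 26250197 to 39252382 counts gave the least counted member 41 reads in its lowest library.

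Alternatives were DESeq2 1.42.0, upper-quartile factors, no filter, limma 3.58.1 on log2 TPM with pseudocounts of 0.1 and 1, a block for the replicate number, the 17 libraries of GC slope below 0, the slope as a covariate, a fit to the groups compared alone, and leaving out each library. All 32 members could be named. Values by group were given for called members, for Pdgfb, Cldn5, Slc2a1, Pdgfrb and Acta2, and for up to 4 more of smallest p per comparison, and further pathway genes were named if called or as the 3 of smallest p. The values of 1 called pathway gene are not reported here. The members and lists were chosen with earlier results of these data known.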

Additional observations from a re-analysis of the deposited data

Results flagged for a closer look

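Each member was checked in each group for a highest or lowest library whose gap to its neighbour took an unusually large share of the group's range (Dixon's test at 95%). Of 128 such sets, 3 stood out, fewer than the about 6.4 that chance gives at 1 in 20. Tie1 was at 11.5 CPM in Control_EC12 replicate 4, the highest of its group, with the next at 9.21 CPM. Slco1a4 was at 15.4 CPM in Control_EC12 replicate 3, the lowest of its group, with the next at 38.5 CPM. Both libraries had a GC slope above 0. Vwf, which encodes the clotting factor carrier made by endothelium, was at 26.1 CPM in MS_EC12 replicate 6, with the next at 15.9 CPM. That library also had the highest GC slope, 0.66, and the highest sum of choroid plexus markers, and the part of either in these values was not tested.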

How the results depend on the processing

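The number of members called was 1 in MS against Control, 0 in Control_EC12 against Control, 1 in MS_EC12 against MS, 3 in MS_EC12 against Control_EC12, 5 in MS_EC12 against Control and 0 for the interaction. In MS against Control it was 0 with upper-quartile factors, with no filter and with both TPM fits. In Control_EC12 against Control it was 1 with the GC covariate. In MS_EC12 against MS it was 5 with DESeq2, and 0 with no filter (0.00317% of all genes called), both TPM fits (0.0272% and 0.876%), the 17 libraries, the GC covariate (0.0163%) and the groups compared alone (0%). In MS_EC12 against Control_EC12 it was 0 in the 17 libraries, 1 with the GC covariate (0.212%) and 0 with the groups compared alone (0.0113%). In MS_EC12 against Control it was 8 with DESeq2 (29.2%), 2 with no filter (1.07%), and 0 in the 17 libraries and with the GC covariate. DESeq2 gave 1 for the interaction. The cause of these differences was not tested. Leaving out 1 library gave 0 to 1, 0 to 0, 0 to 11, 1 to 5, 0 to 13 and 0 to 1 calls in the order above. The share of all genes called in those fits is not at hand, so these counts say nothing about the members in particular.

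Pdgfb reversed in MS_EC12 against Control_EC12 (−0.18 in the 17 libraries, −0.020 with the covariate) and in MS_EC12 against Control (0.060 with upper-quartile factors, and between −0.11 and 0.040 without 1 library, beside −0.36 in the 17 libraries). With the replicate number as a block, 5 members were called in MS_EC12 against MS (20.7% of all genes), 5 in MS_EC12 against Control_EC12 (1.26%) and 12 in MS_EC12 against Control (32.3%). Same-numbered libraries were alike in some pairs only. Their deviations correlated from −0.30 to 0.57 (median 0.082, against −0.014 for other pairs). Of 36 same-numbered pairs, 13 were over 0.1, and 5 libraries correlated best with their own number. The GC slope of replicate 3 was 0.29 in MS, 0.46 in Control_EC12 and 0.54 in MS_EC12, against −0.13 in Control. Whether same-numbered libraries shared a batch was not tested. Of the medians by role under the settings that kept all libraries or the 17, 290 stayed within the spread and 28 moved.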

Other observations

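Extremes of the 32 members gathered in a few libraries. Control replicate 6 held the highest CPM for 8 members: Rgs5, Tjp1, Flt1, Abcb1a, Cdh5, Emcn, Kdr and Myh11. MS_EC12 replicates 3 and 6 held the highest for 7 each, and replicate 6 also the lowest for 4 (Itm2a, Rgs5, Slco1a4 and Tek). No MS library held a highest value. The spread within groups, as the SD of log2 CPM, was largest for the smooth muscle genes (median 0.40 over 3 genes) and the transporters (0.38 over 5), against 0.24 over all genes tested, and smallest for Pdgfb among the members (0.19).

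The sum of 5 red cell markers had its highest median in MS_EC12, 1276 TPM, but the ranges of the groups overlapped. It ran from 847 to 2101 TPM in MS_EC12, 804 to 1192 in Control, 742 to 1160 in MS and 906 to 1537 in Control_EC12. MS_EC12 replicates 1, 4 and 6 were at 2002, 1431 and 2101 TPM. Its replicates 2, 3 and 5, at 1121, 1111 and 847 TPM, lay within the Control range. Of the 5 red cell markers, 4 were called in MS_EC12 against Control, where 14.1% of all genes were. The sum of 6 endothelial markers, all of them members described above, ran from 65.0 to 95.6 TPM in MS_EC12 and from 64.8 to 107 TPM in Control, and the sum of 8 pericyte markers, 5 of them members, from 131 to 157 and from 127 to 165 TPM. The sum of 5 neuron markers did not overlap between these groups, with 3375 to 4859 TPM in MS_EC12 and 4897 to 5179 TPM in Control. Of those 5 markers 1 was called. The part of GC slope or of tissue make-up in these sums was not tested.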
